A study of Homo sapiens with 6 samples.

Results

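The regions described here are the sites at which TET2 was enriched both without and with the compound OPA1. A TET2 peak of the DMSO list on chromosomes 1 to 22 and X was kept when it shared at least 1 bp with a TET2 peak of the OPA1 list, together with that partner. There were 170 such pairs, 340 peaks in all, and each peak had 1 partner. The pairs took in 170 of the 882 DMSO peaks, which is 19.3% (Wilson 95% interval 16.8 to 22%), and 170 of the 1683 OPA1 peaks, which is 10.1% (8.75 to 11.6%). The members were chosen by overlap of the called peak positions in both TET2 libraries, so their tags, lengths, scores and summit distances are given as a description and carry no test.

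The cells were THP-1, an established human line of monocytic acute myeloid leukaemia, exposed to DMSO (vehicle) or to OPA1 over 48 hours. The submitters use the name OPA1 for a compound, and the gene so named is not meant. Their study concerns signalling by opioid receptors and removal of DNA methylation by TET enzymes. Chromatin immunoprecipitation with sequencing was carried out on each treatment with an antibody to TET2 or to EGR1, beside an input library of chromatin without antibody. Each of these 6 groups was 1 library, so no difference between DMSO and OPA1 is checked by replicates. Poisson intervals below cover counting error of tags only. Wilson intervals of shares treat pairs or peaks as independent draws, and neither kind covers differences between libraries.

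TET2 is a dioxygenase that oxidises 5-methylcytosine, mostly at CpG sites, as a step towards removal of the methyl group. It has no DNA-binding zinc finger of the CXXC kind of its own and is brought to chromatin by other proteins, and it is often mutated in myeloid malignancy. EGR1 is an immediate early transcription factor with zinc fingers that bind a GC-rich site and is known for its part in monocyte differentiation.

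The TET2 library of DMSO held 19782924 filtered tags and that of OPA1 19779007, and the EGR1 libraries held 19900311 and 19835572. Coordinates are 1-based positions of GRCh38. A peak is placed by its centre in genes of a RefSeq table: within 1000 bp of either end of a gene, deeper in a gene body, or outside genes. Exons, introns and untranslated regions were not analysed here. A pair outside genes is given with its distance from the nearest protein-coding gene.

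Few pairs were found at a gene start with a promoter window, and 4 of them are shown because their sequence can be read. Of the 170 pairs, 6 met a promoter window of the RefSeq table for GRCh38.p14, which runs from 250 bases before a start to 50 after it. At 5 of them the pair held the start itself, and at MEF2C it ended before the start. The lines give the bases that both peaks of the pair covered, from before the gene start, 5′ to 3′ on the strand of the gene. Capitals mark matches on either strand to GTGGGCG (the core of the EGR1 site), GGGCGG (a GC box), GAGGAA (an ETS core), TGANTCA (AP-1) or TGTGGT (a RUNX core).
PGK1, chrX:78103998-78104247, plus strand: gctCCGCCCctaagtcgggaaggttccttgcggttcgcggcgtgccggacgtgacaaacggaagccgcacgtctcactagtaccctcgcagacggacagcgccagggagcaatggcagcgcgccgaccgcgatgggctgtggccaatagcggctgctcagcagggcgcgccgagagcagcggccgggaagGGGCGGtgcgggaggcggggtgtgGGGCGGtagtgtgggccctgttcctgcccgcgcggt
LOC105376621, beside LMO2, chr11:33893696-33893943, plus strand: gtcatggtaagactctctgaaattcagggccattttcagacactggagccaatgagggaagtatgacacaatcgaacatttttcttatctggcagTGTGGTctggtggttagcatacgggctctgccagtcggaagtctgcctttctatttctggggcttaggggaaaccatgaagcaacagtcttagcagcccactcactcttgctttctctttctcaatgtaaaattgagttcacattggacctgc
MEF2C, chr5:88827245-88827409, minus strand: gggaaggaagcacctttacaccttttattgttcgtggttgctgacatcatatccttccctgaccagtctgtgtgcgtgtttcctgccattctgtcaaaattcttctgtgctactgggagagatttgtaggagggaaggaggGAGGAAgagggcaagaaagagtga
LOC105370399, chr14:22556335-22556565, plus strand: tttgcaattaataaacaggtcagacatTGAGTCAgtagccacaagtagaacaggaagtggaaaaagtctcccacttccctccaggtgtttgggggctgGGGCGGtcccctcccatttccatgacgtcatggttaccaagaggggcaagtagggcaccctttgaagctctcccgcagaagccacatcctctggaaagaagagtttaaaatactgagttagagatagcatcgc

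The PGK1 stretch stood apart from the other windows in base composition. PGK1 encodes phosphoglycerate kinase, an enzyme of glycolysis, and its 250 printed bases held 71.2% G and C, 32 CpG sites and 3 GC boxes. Over the full window of 300 bases PGK1 had 38 CpG sites, against 2 to 7 in the other 5 windows and a median of 14 (quartiles 4 to 28) over all 35116 windows of the table. The summit of the TET2 peak lay 143 bases before the PGK1 start in DMSO and 88 before it in OPA1. The printed bases at LOC105376621 had 46.4% G and C, 3 CpG sites and 1 RUNX core, with summits 97 and 99 bases before the start. LOC105376621 is a noncoding gene beside LMO2, which encodes an adaptor in transcription complexes of blood stem cells.

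The MEF2C stretch, at an inner start of a gene for a transcription factor of muscle, neurons and blood, had 47.9% G and C, 2 CpG sites and 1 ETS core. Its summits lay 158 and 159 bases before the start in DMSO and OPA1. LOC105370399 had 49.4% G and C, 4 CpG sites, 1 GC box and 1 AP-1 match, with summits at 131 and 104 bases before the start. The remaining windows, at IPCEF1 and LOC102723675 (inside CCDC149), had 38.3% and 45.3% G and C, against a median of 58.7% over all windows. Of all 35116 windows, 9.52% held GTGGGCG, 45% GGGCGG, 27.9% GAGGAA, 7.71% TGANTCA and 13.1% TGTGGT. None of the 6 windows held GTGGGCG, which says only that these letters are not there.

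Most pairs carried more TET2 tags in OPA1 than in DMSO. The DMSO peaks of the pairs held a median of 13 tags (8 to 100) and the OPA1 peaks a median of 19 (8 to 146). Medians were also higher in OPA1 over the whole lists (9 in DMSO and 12 in OPA1) and over unpaired peaks (9 and 11). Tags were higher in OPA1 at 151 of 170 pairs (88.8%, 83.2 to 92.7%), equal at 7 and lower at 12. The median ratio of OPA1 to DMSO tags was 1.41, with quartiles of 1.14 and 1.83 and a range from 0.571 to 3.56. At least 2-fold more tags in OPA1 were found at 28 pairs (16.5%), and no pair had 2-fold fewer. Summed over the pairs, the DMSO peaks had 2695 tags and the OPA1 peaks 3911, which is 1.45 times as many.

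**Figure D1:**
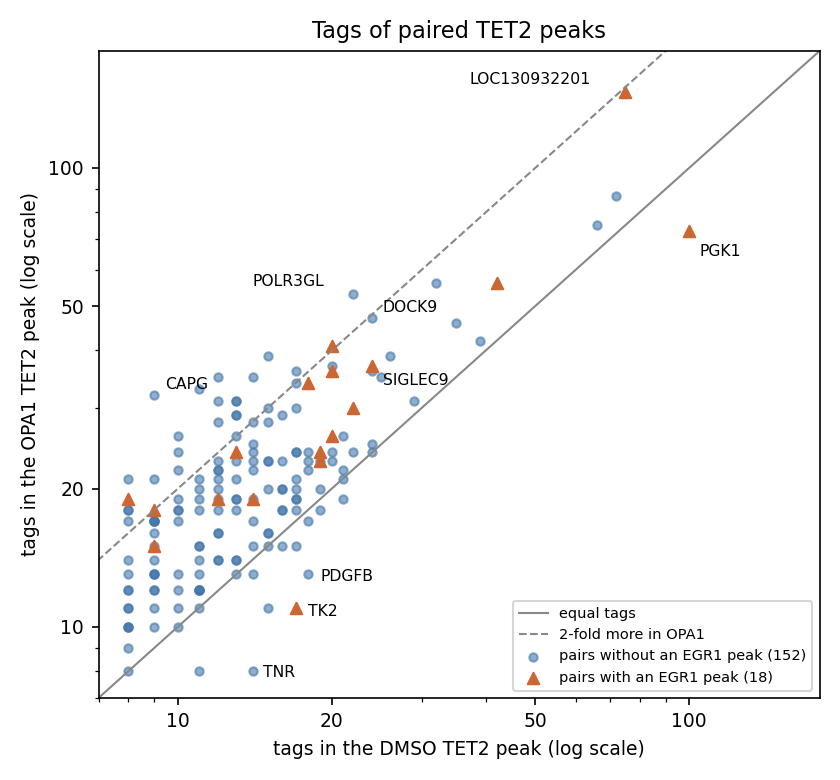
Tags in the TET2 peak of each of the 170 pairs, DMSO on the x axis and OPA1 on the y axis, both on log scales, 1 point per pair; the line marks equal tags. Of the points, 151 lie above the line, 7 on it and 12 below it, and PGK1 (100 and 73 tags) is the strongest of those below.

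The peaks of the pairs were also longer in OPA1, and tags per length hardly differed. Median length was 237.5 bp for DMSO peaks against 331.5 bp for OPA1 peaks, and the OPA1 peak was the longer in 153 pairs (90.0%, 84.6 to 93.7%), with a median difference of 92 bp. Peaks were longer in OPA1 over the whole lists too, with medians of 188 and 251 bp, and among unpaired peaks, with 184.5 and 246 bp. Tags per 100 bp were higher in OPA1 at 92 of 170 pairs (54.1%, 46.6 to 61.4%), with a median ratio of 1.04. Summed tags over summed length gave 6.28 tags per 100 bp in DMSO and 6.48 in OPA1. The fragment length that the peak caller modelled was 64 bp for the DMSO library against 76 bp for the OPA1 library, and its part in peak length was not tested. Across the 170 pairs the ratio of lengths and the ratio of tags had a Spearman correlation of 0.70; both come from the same 2 calls.

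Pairs with few tags in DMSO had the higher ratios. Of 45 pairs with 8 to 10 DMSO tags, 43 had more in OPA1 and 11 (24.4%) had at least 2-fold more. Of 29 pairs with 20 or more DMSO tags, 25 had more in OPA1 and 2 (6.9%) had at least 2-fold more. No listed peak of the pairs held fewer than 8 tags in either treatment, so ratios well below 1 were out of reach at the weakest pairs. DMSO tags are also the denominator of the ratio, so the trend is a description only. By place, tags were higher in OPA1 at 15 of 18 pairs near a gene end, 87 of 100 in gene bodies and 49 of 52 outside genes.

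The strongest pairs, ranked by the smaller of their 2 tag counts, included enzymes, transcription factors and growth factor genes. The PGK1 pair (chromosome X, 78103703 to 78104334) had 100 tags in DMSO (Poisson 95% interval 81.4 to 122) and 73 in OPA1 (57.2 to 91.8). It was the highest pair in DMSO, and its 2 intervals overlap. The pair at LOC130932201 (chromosome 1, 39799624 to 39801185), 10759 bp from BMP8B, had 75 tags in DMSO (59.0 to 94.0) and 146 in OPA1 (123 to 172). It was the highest pair in OPA1, and its intervals do not overlap. Its peak was 780 bp long in DMSO and 1562 bp long in OPA1. BMP8A, a gene for a bone morphogenetic protein in the same stretch of chromosome 1, had 42 and 56 tags.

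HIVEP3, which encodes a large zinc finger protein, was the only protein-coding gene with 2 pairs in its body. They lay 76600 bp from end to end on chromosome 1 and had 72 and 66 tags in DMSO and 87 and 75 in OPA1. The deposited fold enrichment over local background at these 2 pairs was 6.17 and 6.50 in DMSO and 5.71 and 5.33 in OPA1, near the lowest of all pairs (5.59 in DMSO and 5.31 in OPA1). The lowest DMSO fold, 5.59, was that of BMP8A, which had 9.8 in OPA1, and LOC130932201 had 7.0 and 10.04. At PGK1 the fold was 41.75 in DMSO and 33.33 in OPA1. Tag number and enrichment thus ranked these pairs differently.

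**Figure D2:**
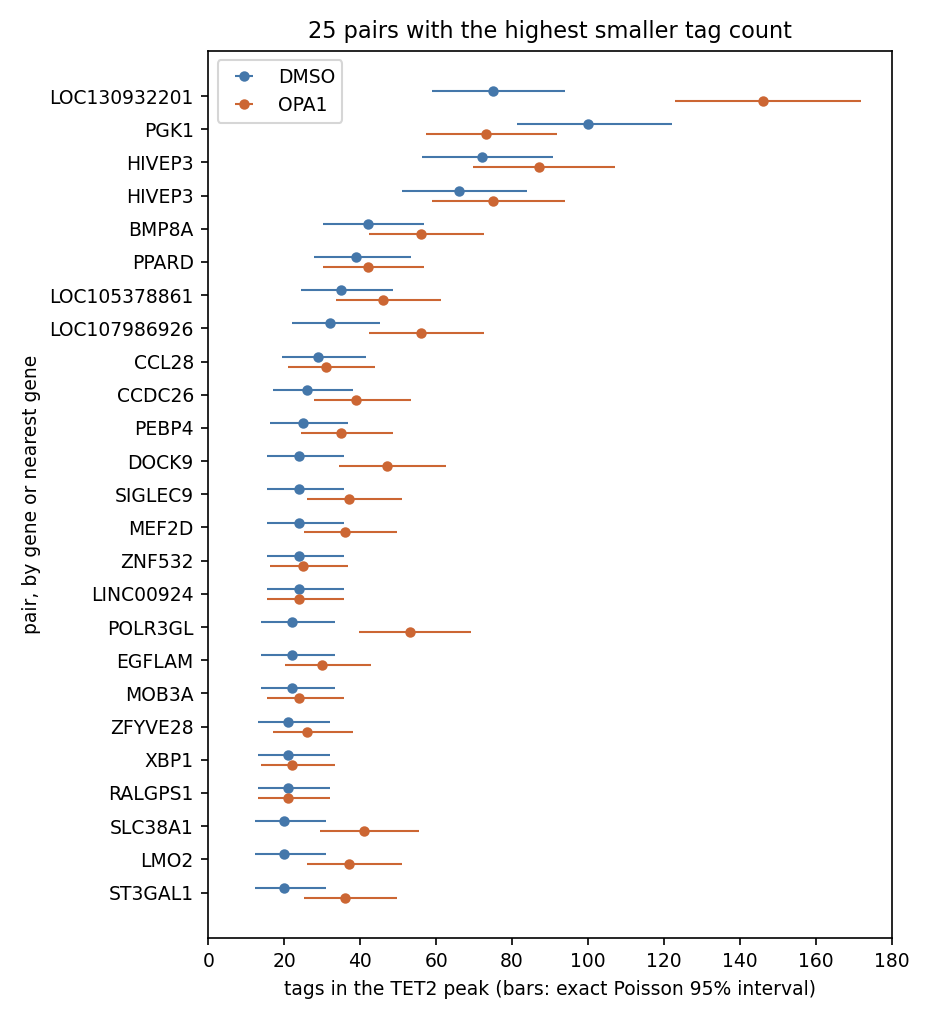
Tags in DMSO and in OPA1 for the 25 pairs with the highest smaller tag count, 1 row per pair, with exact Poisson 95% intervals as bars. In 22 of the 25 the OPA1 point lies to the right, in 2 the points coincide, and at PGK1 the OPA1 point lies to the left.

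Several of the strongest pairs lay in or near genes of transcriptional regulators. PPARD, a nuclear receptor for fatty acids, had 39 tags in DMSO and 42 in OPA1. The pair 4121 bp from MEF2D, a relative of MEF2C, had 24 and 36 tags. The pair 1595 bp from LMO2 had 20 and 37 tags. MEF2C itself, a weaker pair, had 8 and 14 tags, and the pair 10211 bp from XBP1, a factor of the unfolded protein response, had 21 and 22. ZNF532, a zinc finger gene, had 24 and 25. The Poisson intervals of each of these pairs overlap. ELF1 and BRPF3, given among the pairs with fewer tags in OPA1, are regulators too.

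Among surface and signalling genes, SIGLEC9, a sialic acid receptor of myeloid cells, had 24 tags in DMSO and 37 in OPA1. DOCK9, an activator of the GTPase CDC42, had 24 and 47, and SLC38A1, a glutamine transporter, had 20 and 41. ST3GAL1, a sialyltransferase, had 20 and 36 tags. The pair 17626 bp from CCL28, a chemokine gene, had 29 and 31, and RALGPS1, an activator of Ral GTPases, had 21 in each treatment. EGFLAM, for an extracellular matrix protein, had 22 and 30. These genes thus ran from equal tags at RALGPS1 to ratios near 2 at DOCK9 and SLC38A1. GRK5, a kinase of G protein-coupled receptors, held a weaker pair with 10 and 18 tags.

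The Poisson intervals of the 2 treatments did not overlap at 8 pairs (4.71% of the 170), all with more tags in OPA1. CAPG, which encodes an actin-capping protein of macrophages, had 9 tags in DMSO and 32 in OPA1, the highest ratio at 3.56. XRCC1, a scaffold of DNA single-strand break repair, had 12 and 35. ADARB1, an RNA-editing deaminase, had 14 and 35, and CFDP1 had 12 and 31. The pair 146217 bp from UBASH3B, a phosphatase gene, had 15 and 39, and the noncoding LOC100132834 had 11 and 33. LOC130932201, with the 75 and 146 tags given above, and POLR3GL complete the 8. Among 170 pairs some intervals will part by counting error, and no adjustment was made for their number. The counts are raw, and the 2 peaks of a pair differ in length. Tags per 100 bp were lower in OPA1 at LOC130932201, with 9.62 in DMSO and 9.35 in OPA1. At the other pairs of the 8 they were higher, from 5.26 and 5.41 at LOC100132834 to 4.81 and 8.89 at CAPG.

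At POLR3GL, a gene for a subunit of RNA polymerase III, a second DMSO peak lay beside the pair. The pair had 22 tags in DMSO and 53 in OPA1, and the OPA1 peak was 770 bp long. The second DMSO peak, with 28 tags, began 36 bp beyond the OPA1 peak and shared no base with it. The DMSO peaks there held 50 tags together, over a wider stretch than the OPA1 peak. Whether the division into peaks had a part in the ratio was not tested. The other pairs among the 10 highest ratios were DAG1 (dystroglycan) with 8 and 21 tags, MVB12B (an ESCRT subunit) with 10 and 26, and the pair 3398 bp from MMP9, a matrix protease gene, with 10 and 24. Each of these 3 started from 8 to 10 tags in DMSO.

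Fewer tags in OPA1 were listed at 12 pairs. PGK1, with 100 and 73 tags, had the widest difference. TNR, a gene for a matrix protein of the nervous system, had 14 tags in DMSO and 8 in OPA1, the lowest ratio at 0.571. TK2, the mitochondrial thymidine kinase, had 17 and 11. PDGFB, a growth factor gene, had 18 and 13, and STX1A, a syntaxin of vesicle fusion, had 15 and 11. The pair 17705 bp from CEP19 had 11 and 8. The other 6 differed by 1 or 2 tags: LOC101926956, LINC02217, ELF1 (an ETS factor), CTTN (cortactin), BRPF3 (a scaffold of a histone acetyltransferase) and a pair 29312 bp from MBD5. All 12 pairs had overlapping Poisson intervals.

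Some further pairs, picked after their values were seen, stand for no group of genes. Of growth and cell-surface genes, TGFBI, a matrix protein gene, had 11 tags in DMSO and 15 in OPA1, and NOTCH1, a receptor, had 10 and 13. NRG4, an EGF-family ligand, had 8 and 10, and IL17RA, a cytokine receptor, had 11 and 14. STAB1, a scavenger receptor of macrophages, had 17 and 18, and ADGRE1, the macrophage marker known in mice as F4/80, had 11 in each. Of kinases, PAK1, an effector of Rac and CDC42, had 9 and 14. NFE2L2, a transcription factor of the oxidative stress response, had 11 and 12. Higher ratios were present at CELF2, an RNA-binding protein gene, with 12 and 28 tags, and inside UBASH3B with 17 and 34. None of these pairs had Poisson intervals that parted.

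Strong pairs were found far from coding genes as well. At LOC105378861, 60425 bp from F3, the tissue factor gene, there were 35 tags in DMSO and 46 in OPA1. CCDC26, a noncoding gene on chromosome 8, had 26 and 39 tags. LINC00924 had 24 in each treatment, and its nearest protein-coding gene, NR2F2, was 878824 bp away. The pair 281738 bp from HLX, a homeobox gene, had 17 and 36, and it was not among the 25 strongest. By score its peak ranked 502 in the DMSO list and 18 in the OPA1 list.

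The distance between the 2 summits of a pair, the highest points of its peaks, is bounded by the overlap that chose the pairs and is given as a description. The median distance between the DMSO and OPA1 summits was 22 bp (quartiles 9 and 44). It was at most 10 bp in 47 pairs (27.6%, 21.5 to 34.8%), at most 25 bp in 96 (56.5%, 49.0 to 63.7%), at most 50 bp in 132 (77.6%, 70.8 to 83.3%) and at most 100 bp in 162 (95.3%, 91.0 to 97.6%). The OPA1 summit lay at the higher coordinate in 81 pairs, at the lower in 86 and at the same base in 3. At 166 of 170 pairs each summit fell inside the other peak.

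The longer OPA1 peaks extended to both sides. The DMSO peak lay wholly inside the OPA1 peak at 105 pairs (61.8%, 54.3 to 68.7%), the reverse held at 4, and 61 were staggered. The OPA1 peak reached past the DMSO peak by a median of 47 bp on the lower side and 48.5 bp on the upper side. The 4 reverse cases were a HIVEP3 pair, IPCEF1, PDGFB and a pair 44452 bp from TNFAIP3, an inhibitor of NF-κB signalling. The widest growth was 782 bp at LOC130932201, then 417 bp at the other HIVEP3 pair, 404 bp at POLR3GL, 401 bp at LOC100132834 and 291 bp near MEF2D. The 5 largest losses of length were 58 bp at HIVEP3, 32 bp at STX1A, 30 bp at LINC00924, 28 bp near CEP19 and 26 bp at TK2.

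**Figure D3:**
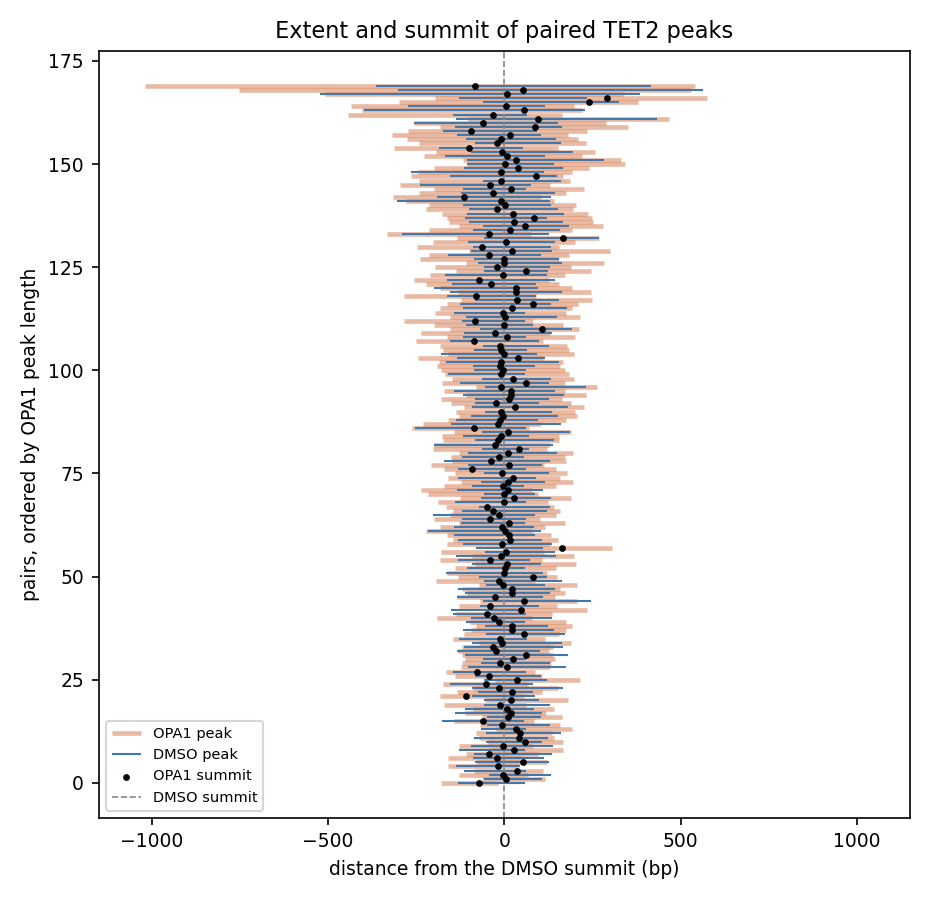
Extent of the DMSO peak (thin line) and OPA1 peak (broad bar) of all 170 pairs, ordered by OPA1 length, in bp from the DMSO summit at 0, with a dot at the OPA1 summit. OPA1 peaks mostly reach past DMSO peaks on both sides; POLR3GL, with its summit moved 291 bp, has the widest shift.

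The widest summit distances were 291 bp at POLR3GL, 240 bp near MEF2D, 168 bp at a pair 508232 bp from MYC, 165 bp near RNVU1-27, a variant U1 small nuclear RNA gene, and 114 bp at DOCK9. The least overlap among the pairs was 85 bp, at a pair 12599 bp from CLSTN2 with 10 and 11 tags, then 95 bp at PRKCZ and 96 bp near RNVU1-27. Just outside the rule, peaks of both lists lay 34 bp apart in RARA, the retinoic acid receptor gene, with 11 tags in DMSO and 17 in OPA1. The next were the POLR3GL peaks 36 bp apart and peaks in DRC10 155 bp apart with 10 and 15 tags.

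Stronger peaks were paired more often, in either list. All of the 10 DMSO peaks with the highest caller score were paired, as were 11 of the next 15, 16 of the next 25 and 30 of the next 50. Of the 80 DMSO peaks from rank 801 down, 1 was paired (1.25%, 0.221 to 6.75%). In the OPA1 list all of the first 10, 12 of the next 15, 13 of the next 25 and 17 of the next 50 were paired, and 3.03% (2.07 to 4.40%) from rank 801 down. By tags, 29 of 39 DMSO peaks with 20 or more had a partner (74.4%, 58.9 to 85.4%), against 84 of 250 such OPA1 peaks (33.6%, 28.0 to 39.7%).

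**Figure D4:**
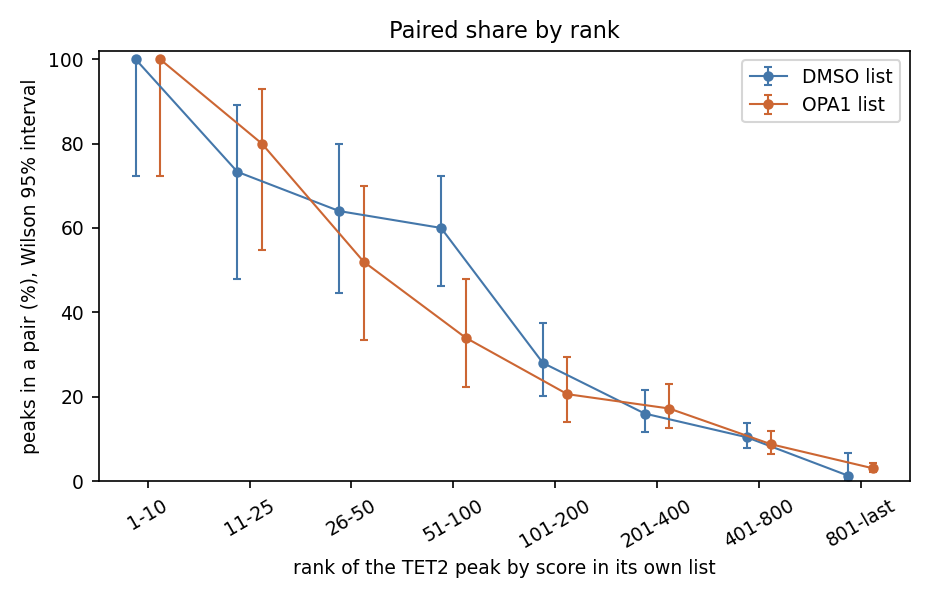
Share of peaks with a partner in the other list, in percent, by rank of the deposited caller score within each TET2 list, with Wilson 95% intervals as bars. The share is 100% in the first 10 of either list and 1.25% and 3.03% in the last classes of the DMSO and OPA1 lists.

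Tags were more alike between the treatments than scores. Across the 170 pairs the Spearman correlation between treatments was 0.66 for tags, 0.54 for length and 0.30 for score. The pair near XBP1 had 21 and 22 tags but a score of 153.85 in DMSO and 50.31 in OPA1, and a fold of 28.92 and 7.0. Scores compare each peak with its own local background and input. A false discovery rate of at most 5% was given to 85 of the 170 peaks in DMSO, 160 in OPA1 and both peaks of 81 pairs. Over the whole lists it was given to 169 of 882 DMSO peaks and 1352 of 1683 OPA1 peaks, so the lists themselves differed in this rate.

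By place in genes the pairs were much like the whole lists. There were 100 in gene bodies (58.8%, 51.3 to 65.9%), 52 outside genes (30.6%, 24.2 to 37.9%) and 18 within 1000 bp of a gene end (10.6%, 6.8 to 16.1%). Over the whole lists 54.4% of DMSO peaks and 55.4% of OPA1 peaks lay in gene bodies, and 35.7% and 34.0% outside genes. The share near a gene end was 9.86% over the whole DMSO list and 10.6% over the whole OPA1 list. Unpaired peaks had 9.69% in DMSO and 10.6% in OPA1. Counting protein-coding genes alone, 6 pairs were near an end (3.53%), against 4.08% of the whole DMSO list and 4.34% of the whole OPA1 list. Protein-coding genes with a pair inside or within 5000 bp numbered 101 of 20033, which is 0.504%.

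Of the 186 genes on 8 lists of pathways and cell markers, 8 had a pair (4.30%), against that 0.504% of protein-coding genes. The lists were chosen with earlier results of these data known. The higher share was not particular to pairs. Of the 186 genes, 17 had a DMSO peak and 31 an OPA1 peak, against 2.48% and 4.67% of all protein-coding genes. Among 24 regulators of blood stem cells and leukaemia, CUX1, a homeobox gene, had 18 tags in DMSO and 22 in OPA1, and LMO2 was the other. Of 33 monocyte and granulocyte genes, SIGLEC9 had a pair. Of 30 textbook targets of EGR1, HBEGF, an EGF-family ligand, had 8 and 17 tags, and PDGFB was the other. PGK1 was found among 20 genes of glycolysis and housekeeping. The other listed genes with a pair were ARHGEF3, with 9 and 18 tags, and BCAR3, an adaptor of adhesion signalling, with 19 and 23.

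Lists with no pair were myeloid transcription factors (24 genes), the TET and DNA methylation pathway (26 genes) and opioid receptors and peptides (10 genes). Peaks of single lists were present at some of them, beside 2.48% of all protein-coding genes with a DMSO peak inside or within 5000 bp and 4.67% with an OPA1 peak. Of the TET and DNA methylation pathway, DNMT3A, a DNA methyltransferase, had a peak in DMSO, and TET1, TET3, CXXC5, HMCES and MBD4 had a peak in OPA1. Of the myeloid factors, BATF3 and JUNB had a peak in DMSO, and RARA had a peak in each treatment without overlap. OPRM1, the mu opioid receptor gene, had a peak in OPA1.

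Pairs were found on 23 chromosomes, with the highest numbers on chromosome 1 (21), chromosome 8 (19) and chromosome 2 (17). Chromosome 8 held 11.2% of the pairs (7.27 to 16.8%), against 7.14% of DMSO peaks and 8.14% of OPA1 peaks. Chromosome 7 held 2 pairs among its 33 DMSO peaks. On X, 3 of 4 DMSO peaks were paired. There were 18 groups of 2 pairs whose steps were at most 1 Mb, and none larger. The closest was at PEBP4 on chromosome 8, where a pair outside genes, 7942 bp from PEBP4 (32 and 56 tags, shown in the plot of the strongest pairs under the noncoding gene LOC107986926 near it), and a pair inside PEBP4 (25 and 35 tags) lay within 11189 bp. Other groups joined XRCC1 with SMG9 and XBP1 with ZNRF3.

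EGR1 peaks, which the pairing rule did not use, were found at 18 of the 170 pairs. An EGR1 peak of the OPA1 library overlapped 17 pairs (10.0%, 6.34 to 15.4%), and an EGR1 peak of the DMSO library overlapped 3 (1.76%, 0.602 to 5.06%). At 16 of those 17 pairs, all but PGK1, the EGR1 peak of the OPA1 library had a false discovery rate above 5%. PGK1 and RNU6-1, the gene of the spliceosomal U6 RNA, had EGR1 peaks in both treatments, and LOC105376626 in DMSO alone. Over the whole TET2 lists, EGR1 peaks of the OPA1 library overlapped 2.15% of DMSO peaks and 1.43% of OPA1 peaks. Those of the EGR1 DMSO library overlapped 0.907% of DMSO peaks and 0.357% of OPA1 peaks. Among unpaired TET2 peaks, 7 of 1513 in OPA1 (0.463%, 0.224 to 0.952%) and 2 of 712 in DMSO (0.281%, 0.0771 to 1.02%) met an EGR1 peak of the OPA1 library. The EGR1 and TET2 calls of a treatment shared an input, and the difference between paired and unpaired peaks was not tested.

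The counts with EGR1 were also taken by TET2 tag number. With 8 to 14 tags in OPA1, 1 of 41 paired peaks (2.44%, 0.432 to 12.6%) and 5 of 1109 unpaired peaks (0.451%, 0.193 to 1.05%) met an EGR1 peak of the OPA1 library, and these intervals overlap. With 15 to 19 tags the counts were 4 of 45 (8.89%, 3.51 to 20.7%) and 2 of 238 (0.84%, 0.231 to 3.01%). Of OPA1 TET2 peaks with 20 or more tags, 12 of 84 paired peaks met an EGR1 peak of the OPA1 library (14.3%, 8.37 to 23.3%). Of 166 unpaired peaks of that strength 0 did (0.0 to 2.26%). In the DMSO list the counts were 8 of 29 paired (27.6%, 14.7 to 45.7%) and 0 of 10 unpaired (0.0 to 27.8%). These intervals overlap, so the DMSO counts do not separate them. Paired peaks of the OPA1 class were themselves stronger: 32 of the 84 had 30 or more tags, against 23 of the 166, and the part of peak strength was not tested. Seen from EGR1, 17 of 506 peaks in OPA1 (3.36%, 2.11 to 5.31%) and 3 of 508 in DMSO (0.591%, 0.201 to 1.72%) lay at a pair.

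Summit distances between EGR1 and TET2 were bounded by the overlap that picked these pairs. At the 17 pairs with an EGR1 peak in OPA1, the EGR1 summit lay a median of 26 bp from the TET2 OPA1 summit, within 50 bp at 14 and within 100 bp at 16. The farthest was 142 bp, at BMP8A. At PGK1 the EGR1 summit of OPA1 lay 2 bp from the TET2 summit. The summits shared a base at 2 pairs, 11622 bp from ELOVL6, a fatty acid elongase gene, and 170626 bp from TSNARE1.

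In OPA1, 16 of the 17 pairs had fewer EGR1 tags than TET2 tags, and PGK1 had more. In DMSO, each of the 3 pairs with an EGR1 peak had more EGR1 tags than TET2 tags: 172 against 100 at PGK1, 74 against 20 at RNU6-1 and 14 against 12 at LOC105376626. The EGR1 peaks in OPA1 held a median of 13 tags, against 9 over the whole EGR1 list. PGK1 had 98 EGR1 tags in OPA1 and 172 in DMSO, beside 73 and 100 TET2 tags, so both factors had fewer in OPA1. LOC130932201 had 58 EGR1 tags in OPA1 against 146 of TET2, and BMP8A had 38 against 56. EGFLAM had 22 EGR1 tags, SLC38A1 16, ST3GAL1 14, and SIGLEC9 and ARHGEF3 13 each. BCAR3 and the pair near ELOVL6 had 11 each. The lowest, with 8 tags each, were ACOXL, DAZAP2 and TK2, and the pair 3871 bp from ZDHHC11B had 9.

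**Figure D5:**
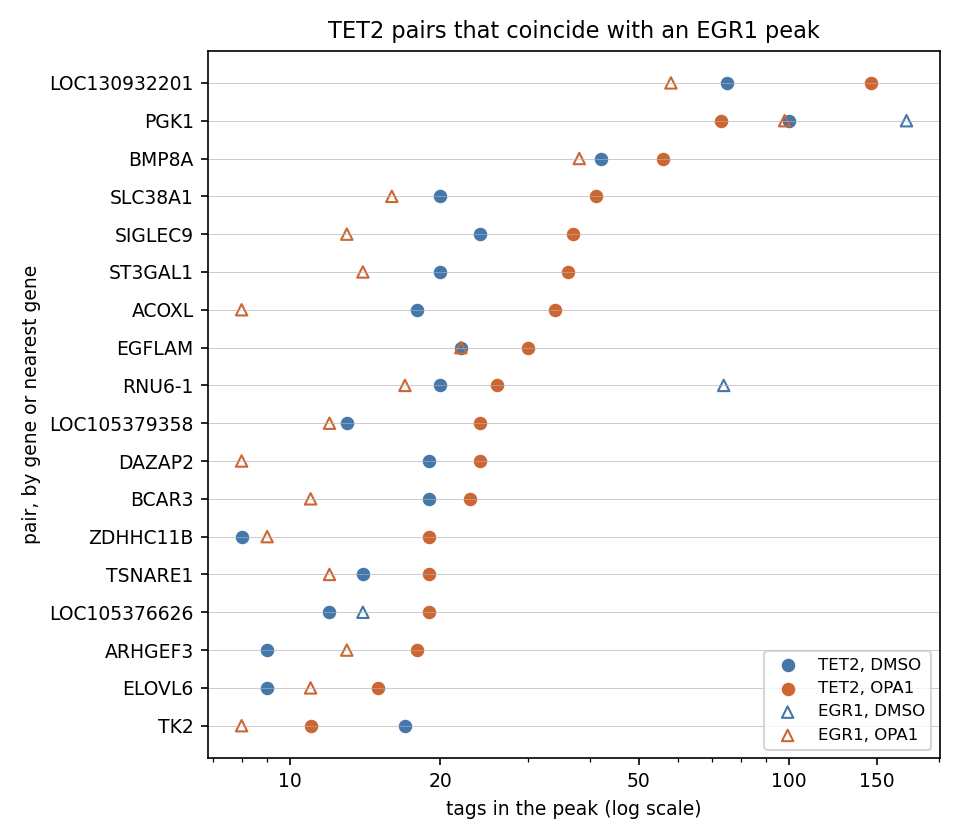
Tags of TET2 and EGR1 in each treatment at the 18 pairs with an EGR1 peak, on a log axis without error bars, filled circles for TET2 and open triangles for EGR1; a missing triangle means that no EGR1 peak was listed there. PGK1 has EGR1 tags of 172 in DMSO and 98 in OPA1 and RNU6-1 of 74 and 17, and 15 pairs have an EGR1 peak in OPA1 alone.

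RNU6-1 and PGK1 both had fewer EGR1 tags in OPA1 than in DMSO. RNU6-1 had 74 EGR1 tags in DMSO and 17 in OPA1, while its TET2 tags were 20 and 26. The Poisson intervals of the TET2 tags overlap between treatments at both RNU6-1 and PGK1. Of the 17 EGR1 peaks in OPA1, 16 had a false discovery rate above 5%, RNU6-1 among them, and PGK1 did not. The same count over the whole EGR1 list of OPA1 is not given here, so the pairs are not set apart from it. Of the 3 EGR1 peaks in DMSO, those at RNU6-1 and PGK1 had a false discovery rate of 0%, and that at LOC105376626, with 14 tags, had 75%. Fewer cells, less enrichment and fewer molecules at a site cannot be told apart in these libraries.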

How the data were processed

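Per the labels, TET2, EGR1 and input libraries were made from THP-1 cells after 48 hours in DMSO or OPA1, with 1 library per group. Per the file headers, MACS 1.4.2 called peaks in each ChIP library against the matching input, with a p-value cutoff of 1e-05, band width 200 bp, model fold 10 to 30, 50 bp tags, 1 tag per position and the larger library scaled to the smaller. Bowtie2 2.2.6 and HOMER stand in the submitters' processing notes with GRCh38 (hg38); HOMER's step is not named in the sources used here. Each deposited peak carries a raw tag count, a score (10 times the negative log10 of the p-value), a fold enrichment ratio over local background and a false discovery rate in percent, all from the authors' peak caller. The input libraries held 20075020 (DMSO) and 20038155 (OPA1) filtered tags.

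Pairs, shares with Wilson intervals, exact Poisson intervals of tags and gene places were computed in Python 3.11.15 with pandas 2.3.3 and SciPy 1.17.1. The code was checked on simulated lists. Genes and promoter windows came from RefSeq (GRCh38.p14); coding and noncoding genes numbered 59675. Pairs were named by rule: the 25 strongest, the 10 highest and all lower tag ratios, extremes of length, summit distance and overlap, and those with EGR1, a listed gene or a gene start. Some further pairs (GRK5, HLX, TNFAIP3 and those of mixed function) were named after their values were seen. The members and lists were chosen with earlier results of these data known. Alternatives varied the overlap, peak strength, tag scale, gene window and EGR1 rule.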

Additional observations from a re-analysis of the deposited data

Results flagged for a closer look

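At the RNU6-1 pair the EGR1 tags differed by -57 (OPA1 minus DMSO), while the TET2 tags differed by 6. The Poisson intervals of the TET2 tags overlap (12.2 to 30.9 in DMSO, 17.0 to 38.1 in OPA1), so they show no TET2 change beyond counting error. The difference between the factors was not tested, with 1 library each.

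A further pair of TET2 peaks lay on an unplaced contig, outside the chromosomes used above. It had 10 tags in DMSO and 13 in OPA1.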

How the results depend on the processing

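The number of pairs, 170, was 168 when at least 50% of the shorter peak had to overlap, 166 with each summit inside the other peak and 171 with every contig. It was 81 with a false discovery rate of at most 5% in both lists and 90 with a score of at least 60 in both. The share of pairs with more tags in OPA1 stayed between 85.2% and 90.0% under those overlap and strength limits. It was 54.1% for tags per 100 bp and 92.9% for tags scaled to each library's filtered total, where the 7 equal pairs count as higher in OPA1. The share near a gene end was 33.5% with 5000 bp, beside 29.9% of each whole TET2 list, and 3.53% with protein-coding genes alone. Pairs with an EGR1 peak numbered 18 within 500 bp, 14 with the false discovery limit on TET2 and 7 with an EGR1 score of at least 60. Without BMP8A and LOC130932201, an alternative chosen after seeing the data, the number was 16. The median summit distance was 21 to 22 bp throughout. No paired analysis was possible because each group is 1 library with no replicate number, and no library could be left out.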

Other observations

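Some genes held a TET2 peak in each treatment without overlap. Of 154 protein-coding genes with a peak inside or within 5000 bp in both lists, 101 had a pair and 53 did not. Among the 53, chosen here after their values were seen, were ITGB2, the common chain of leukocyte integrins, GSK3B, a kinase of Wnt signalling, and INPP5D, a phosphoinositide phosphatase of blood cells. In RAB27A, a GTPase of vesicle transport, peaks with 10 tags in each treatment lay 1376 bp apart, and in LONP2 peaks with 12 tags each lay 801 bp apart.

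A few strong peaks had no partner. Of the 25 DMSO peaks with the highest score, 4 were unpaired: those in NFAM1 (13 tags), TNFAIP8L3 (16 tags) and CFAP58 (15 tags) and a peak of 8 tags 615493 bp from OR4C46. Of the 25 in OPA1, 3 were unpaired: NUDT7 (34 tags), SHQ1 (25 tags) and a peak of 26 tags 96106 bp from PTGS2, the gene of cyclooxygenase.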
